A study of Mus musculus with 2 samples.

Results

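Granule neurons of the dentate gyrus were taken from single-nucleus RNA sequencing of irradiated and mock-irradiated mouse brains by the detection of marker genes. A nucleus was a member when it held at least 4 of the 7 genes Prox1, Trpc6, Glis3, C1ql3, Itga8, Sema5a and Smoc2, no UMI of the inhibitory neuron gene Gad2, at most 1 UMI of the cortical gene Rorb, and at most 1 of the 5 genes Mog, Pdgfra, Csf1r, Flt1 and Aqp4, which mark glia and endothelium. A UMI, or unique molecular identifier, counts 1 captured RNA molecule. The rule found 524 members among 26705 kept nuclei, 272 of 15668 in WBRT-28d and 252 of 11037 in ShamRT-28d. Kept nuclei had at least 500 detected genes and at most 5% of their UMIs on mitochondrial genes. Since members were chosen from these counts, the values of the 7 rule genes and every difference between members and other nuclei are given as a description.

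The WBRT-28d library came from mice whose whole brain had received 5 fractions of 2 Gy, 28 days earlier. The ShamRT-28d library came from mock-irradiated mice, which the sample labels call untreated. The labels give the strain as C57BL/6, with no allele or agent named beside the radiation, and the methods give C57BL/6J wild-type females bought at 4 to 6 weeks of age. Each library pools the frozen whole brains of 2 animals, with no record of which nucleus came from which animal. With 1 library per condition there is no replicate, so no test was made, and all 95% intervals cover counting error only.

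Granule neurons form the main cell layer of the dentate gyrus, the entrance of the hippocampus. They receive input from the entorhinal cortex and send their axons, the mossy fibers, to mossy cells and to CA3 pyramidal cells, using glutamate. They are known for sparse firing, for strong induction of activity-dependent genes such as Arc and Bdnf, and for being renewed in part by neurogenesis in the adult, which radiation is known to impair. Prox1, a homeobox transcription factor, specifies their fate and is kept in the mature cell.

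The promoter of Prox1 is shown because this gene leads the membership rule. The window runs over 300 bases of mouse chromosome 1, chr1:190170778-190171077 on the minus strand, from RefSeq on GRCm38.p6, 5′ to 3′. Capitals mark an E-box of the class bound by NeuroD factors (CAGATG or CATCTG, both strands searched), at bases 72 to 77 of the window.
Prox1: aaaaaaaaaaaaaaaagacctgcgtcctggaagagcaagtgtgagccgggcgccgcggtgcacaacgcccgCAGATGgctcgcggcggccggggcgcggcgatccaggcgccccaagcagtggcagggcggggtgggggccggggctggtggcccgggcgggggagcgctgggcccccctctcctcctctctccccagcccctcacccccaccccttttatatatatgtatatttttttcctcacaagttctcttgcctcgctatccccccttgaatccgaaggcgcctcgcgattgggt
These letters occur in 17.15% of all 32851 promoter windows of this length and in 1 of the 2 windows of Prox1, so the match describes the window and no binding.

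The kept libraries were of like depth for the members. Member nuclei held 1811899 UMIs in WBRT-28d and 1839037 in ShamRT-28d, with medians per nucleus of 4835.5 UMIs and 2128.5 detected genes in WBRT-28d and 5116.5 UMIs and 2173 genes in ShamRT-28d. The other nuclei had medians of 2560 UMIs in WBRT-28d and 2335 in ShamRT-28d. Among the members, Scrublet called 20 doublets (7.35%) in WBRT-28d and 15 (5.95%) in ShamRT-28d, all left in. In all, 43 barcodes occurred in both libraries, of which 0 were members. At least 4 rule genes were found in 515 nuclei of WBRT-28d and 334 of ShamRT-28d. The limits on the other genes removed far more of these in WBRT-28d, where 133 held Gad2, 168 more than 1 UMI of Rorb and 149 more than 1 gene of glia or endothelium, against 33, 47 and 31 in ShamRT-28d, with overlaps.

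The label was checked against 16 dentate markers that the rule did not use. Their summed level was 13693 CPM (UMIs of a gene per 1000000 UMIs of the same nuclei) in WBRT-28d members and 13991 CPM in ShamRT-28d members, against 5243 CPM in WBRT-28d and 4791 CPM in ShamRT-28d in all other nuclei. Most of the members' sum came from Lrrtm4 (7334 CPM in WBRT-28d and 7457 CPM in ShamRT-28d) and Zbtb20 (3059 CPM in WBRT-28d and 3164 CPM in ShamRT-28d). Neither is specific, since oligodendrocyte nuclei held 1316 CPM of Lrrtm4 in WBRT-28d and 625 CPM in ShamRT-28d. Their Zbtb20 was at 1547 CPM in WBRT-28d and 1640 CPM in ShamRT-28d. Of the 16 markers, 15 were higher in the members than in all other nuclei in both libraries. C1ql2, which encodes a secreted synaptic organizer of mossy fibers, was found in 16.2% of WBRT-28d and 13.5% of ShamRT-28d members, against 0.592% of WBRT-28d and 0.193% of ShamRT-28d oligodendrocyte nuclei, whose median depths were 2404 UMIs in WBRT-28d and 2297.5 UMIs in ShamRT-28d. Dsp, which encodes the desmosome protein desmoplakin, was found in 13.2% of WBRT-28d and 13.1% of ShamRT-28d members, against 0.148% of WBRT-28d and 0.0966% of ShamRT-28d oligodendrocyte nuclei. Slc17a7, the vesicular glutamate transporter of forebrain glutamatergic neurons, had a UMI in 53.7% of WBRT-28d and 55.6% of ShamRT-28d members. Prox1 itself was less selective, with a UMI in 21.1% of oligodendrocyte nuclei in WBRT-28d and 28.5% in ShamRT-28d.

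Summed over each list, markers of neighbouring hippocampal neurons were present below their level in the other nuclei. Singly, 2 genes of CA pyramidal cells were above that level in both libraries. The 7 genes of CA pyramidal cells summed to 55.7 CPM in WBRT-28d and 51.1 CPM in ShamRT-28d members, 71.2% in WBRT-28d and 66.7% in ShamRT-28d of the level in the other nuclei. The 5 genes of mossy cells summed to 27.6 CPM in WBRT-28d and 32.1 CPM in ShamRT-28d, 73.7% in WBRT-28d and 64.4% in ShamRT-28d of that level, with Gal and Csf2rb2 at 0 UMIs in both. Of the 6 genes of cerebellar granule cells, Gabra6, Fat2 and Cbln3 were at 0 UMIs in both libraries. The 3 genes of subcortical glutamatergic neurons summed to 43.6 CPM in WBRT-28d and 17.4 CPM in ShamRT-28d.

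Markers of other cell types were not absent, and they differed between the libraries. The 10 cortical genes summed to 848 CPM in WBRT-28d members and 1090 CPM in ShamRT-28d members, 45.5% in WBRT-28d and 53.1% in ShamRT-28d of the level in the other nuclei. Members of WBRT-28d had more of the 8 oligodendrocyte genes (1173 CPM in WBRT-28d, against 902 CPM in ShamRT-28d), the 5 astrocyte genes (133 CPM in WBRT-28d against 49.5 CPM in ShamRT-28d), the 4 endothelial genes (92.7 CPM in WBRT-28d against 20.1 CPM in ShamRT-28d), the 5 microglia genes (115 CPM in WBRT-28d against 87.5 CPM in ShamRT-28d) and the 3 OPC genes (32.6 CPM in WBRT-28d against 22.3 CPM in ShamRT-28d). The 13 GABA neuron genes summed to 3107 CPM in WBRT-28d and 2449 CPM in ShamRT-28d, most of it Adarb2 at 1602 CPM in WBRT-28d and 1550 CPM in ShamRT-28d. Erbb4, a neuregulin receptor of interneurons, had 576 CPM in WBRT-28d and 227 CPM in ShamRT-28d. It was also found in most oligodendrocyte nuclei of both libraries, so it does not mark interneurons alone here. In the matched members described next, oligodendrocyte genes summed to 1030.1 CPM in WBRT-28d and 789 CPM in ShamRT-28d, endothelial genes to 78.1 CPM in WBRT-28d and 33.9 CPM in ShamRT-28d, and microglia genes to 87.9 CPM in WBRT-28d and 102 CPM in ShamRT-28d. The part of these genes in the differences between the libraries was not tested.

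To find members that resemble another cell type, each was compared with the mean profiles of 9 cell types over genes of at least 200 UMIs. Left out were all genes of the membership rule, Slc17a7, the markers used to choose nuclei of the other types, and mitochondrial genes. The dentate profile was built from the members with 6 or 7 rule genes. The dentate profile was the nearest for 218 members (80.1%) in WBRT-28d and 196 (77.8%) in ShamRT-28d, called profile-matched here. The nearest was the cortical glutamatergic profile for 28 members of WBRT-28d and 46 of ShamRT-28d, the GABA neuron profile for 11 of WBRT-28d and 1 of ShamRT-28d, and another type for the rest. The remaining profiles were of oligodendrocytes, astrocytes, OPC, microglia, endothelium and fibroblasts. No profile of CA pyramidal, mossy or subcortical glutamatergic cells was included, so such nuclei could count as matched. The unmatched nuclei were deep, with median UMIs of 8765 in WBRT-28d and 12102 in ShamRT-28d against 4425.5 in WBRT-28d and 4491 in ShamRT-28d in the matched, and held 12 of the called doublets in WBRT-28d and 11 in ShamRT-28d. In the plot of members by rule genes, the share that matched climbed with the number of rule genes. At 4 rule genes it was 69.7% of 119 nuclei in WBRT-28d and 61.1% of 90 in ShamRT-28d, and at 7 it was 100% of 28 in WBRT-28d and 96% of 25 in ShamRT-28d. Members with 6 or 7 rule genes made the dentate profile, though each was compared without its own counts. The climb is therefore no check of the label. Results are given for all members and for the matched ones. The match used the abundant genes outside those left out, so it is not independent of their ratios.

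**Figure D1:**
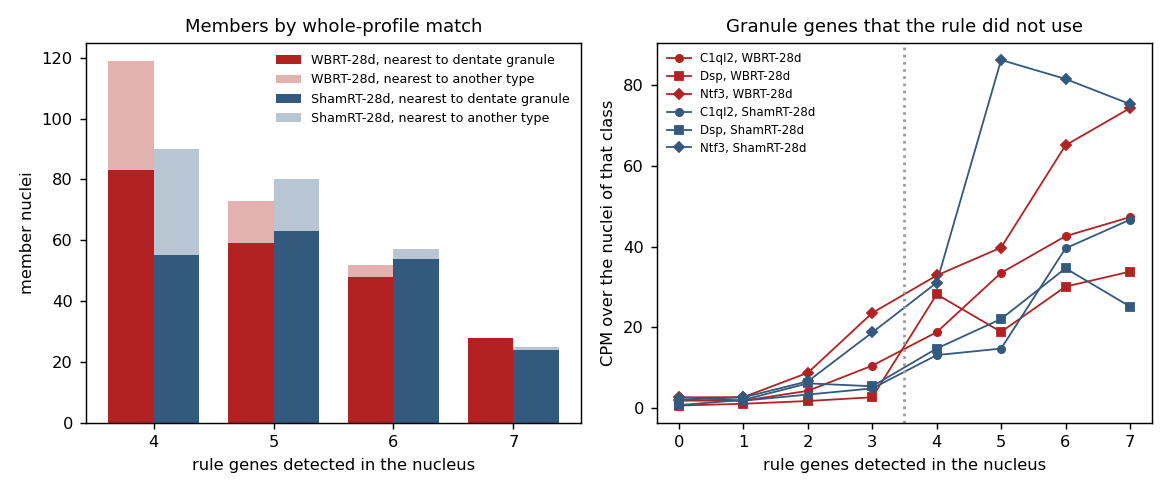
Members by number of rule genes detected, stacked by nearest profile (left, number of nuclei), and level of C1ql2, Dsp and Ntf3, which are outside the rule, in CPM over the nuclei with that number of rule genes that met the other limits (right), for WBRT-28d and ShamRT-28d. The dotted line marks the threshold of 4 rule genes, and C1ql2 reached 47.3 CPM in WBRT-28d and 46.7 CPM in ShamRT-28d at 7 rule genes.

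The threshold cuts a gradual change. Just outside it stood 220 nuclei of WBRT-28d and 281 of ShamRT-28d with 3 rule genes that met the other limits, and just inside it 119 of WBRT-28d and 90 of ShamRT-28d with 4. C1ql2 was at 10.5 CPM in WBRT-28d and 4.81 CPM in ShamRT-28d with 3 rule genes, and at 18.8 CPM in WBRT-28d and 13.1 CPM in ShamRT-28d with 4. Dsp was at 2.62 CPM in WBRT-28d and 5.34 CPM in ShamRT-28d outside the threshold, and at 28.2 CPM in WBRT-28d and 14.7 CPM in ShamRT-28d inside. Ntf3, which encodes neurotrophin 3, was at 23.6 CPM in WBRT-28d and 18.7 CPM in ShamRT-28d outside and 32.9 CPM in WBRT-28d and 31.1 CPM in ShamRT-28d inside. Nuclei with more UMIs show more genes, and median depth climbed from 3720 UMIs at 4 rule genes to 9903 at 7 in WBRT-28d, and from 3785 to 7845 in ShamRT-28d.

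The genes that stood out most in the members over all other nuclei were largely those known from granule cells. Lct, which encodes lactase, was 28.3-fold higher than in the other nuclei of WBRT-28d and 19.0-fold higher in ShamRT-28d. Stra6, which encodes the retinol transporter at the cell surface, was 17.6-fold higher in WBRT-28d and 13.3-fold in ShamRT-28d, and C1ql2 15.1-fold in WBRT-28d and 12.01-fold in ShamRT-28d. Ntf3 was 14.4-fold higher in WBRT-28d and 19.0-fold in ShamRT-28d. Vwa3b, Slc29a4 (a monoamine transporter), Kcng2 (a silent potassium channel subunit), Arsj (an arylsulfatase), Gpc4 (a glypican of the cell surface) and Il16 (a cytokine precursor) followed, with folds of 5.80 to 13.3 in WBRT-28d and 6.39 to 9.64 in ShamRT-28d. Smoc2, Trpc6, Itga8 and C1ql3 of the rule were among the first 15 as well, by construction. In both libraries 241 genes were at least 2-fold higher in the members.

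The rule genes themselves are given as levels. Prox1 was at 216 CPM in WBRT-28d and 153 CPM in ShamRT-28d, and Glis3, a zinc finger transcription factor, at 657 CPM in WBRT-28d and 484 CPM in ShamRT-28d. Trpc6, a cation channel, was at 353 CPM in WBRT-28d and 477 CPM in ShamRT-28d. C1ql3, the relative of C1ql2, was at 186 CPM in WBRT-28d and 279 CPM in ShamRT-28d, and Sema5a, a semaphorin, at 433 CPM in WBRT-28d and 548 CPM in ShamRT-28d. Itga8, an integrin subunit, was at 367 CPM in WBRT-28d and 318 CPM in ShamRT-28d, and Smoc2, a matrix protein, at 205 CPM in WBRT-28d and 181 CPM in ShamRT-28d. All 7 stayed within 1.5-fold between the libraries over all members, while in the matched members Sema5a had a ratio of 0.660.

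The members made up 1.74% of kept nuclei in WBRT-28d (exact binomial interval 1.54 to 1.95%) and 2.28% in ShamRT-28d (2.01 to 2.58%), a ratio of 0.760 (0.638 to 0.906). Over Slc17a7 neurons alone the shares lay close, at 6.03% of 2420 in WBRT-28d (5.12 to 7.06%) and 6.32% of 2216 in ShamRT-28d (5.34 to 7.41%). The matched members were 1.39% of kept nuclei in WBRT-28d and 1.78% in ShamRT-28d. Of Slc17a7 neurons they were 4.63% in WBRT-28d and 4.56% in ShamRT-28d. With each nucleus thinned to 3000 UMIs and shallower ones left out (9043 in WBRT-28d and 6692 in ShamRT-28d), the rule found 2.34% of 6625 nuclei in WBRT-28d and 3.38% of 4345 in ShamRT-28d. Thinned to 1000 UMIs, with 0 nuclei left out in WBRT-28d and 515 in ShamRT-28d, it found 0.236% in WBRT-28d and 0.513% in ShamRT-28d. How much hippocampus each library sampled was not measured otherwise, and it cannot be told apart from irradiation.

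Members varied among themselves by more than depth gives. The variance over nuclei was at least 2 times that expected from depth in both libraries for 786 of 6736 genes with a mean of at least 0.1 UMI, while the median gene stood at 1.23 times in WBRT-28d and 1.28 in ShamRT-28d. Erbb4 came first, at 102 times in WBRT-28d and 76.4 times in ShamRT-28d, and was found in 52.6% of WBRT-28d and 19.0% of ShamRT-28d members, against 87.7% of WBRT-28d and 85.4% of ShamRT-28d oligodendrocyte nuclei. Lsamp, Malat1, Ptprd, Cntnap2, Nrxn3, Nrg1, Il1rapl2, Kcnip4 and Sgcz followed, at 28.8 to 64.9 times in WBRT-28d and 29.4 to 96.0 times in ShamRT-28d. In the matched members the same measure reached 2 for 440 of 5892 genes. There the nuclear RNA Malat1 led at 28.3 times in WBRT-28d and 29.1 in ShamRT-28d, then the cyclic AMP phosphodiesterase Pde4b at 21.1 times in WBRT-28d and 23.7 in ShamRT-28d, the Kv4 channel partner Kcnip4 at 25.7 times in WBRT-28d and 19.2 in ShamRT-28d, then the neurexin Nrxn3 at 16.6 times in WBRT-28d and 27.6 in ShamRT-28d.

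Between the libraries, 7924 genes with at least 50 UMIs over all members were compared by summed UMIs and CPM. Of these, 637 (8.04%) were at least 1.5-fold higher in WBRT-28d and 489 (6.17%) at least 1.5-fold lower, and the median log2 ratio of WBRT-28d to ShamRT-28d was 0.03. In the matched members 6119 genes were compared, of which 9.27% were higher and 6.62% lower, with a median of 0.02. In the other Slc17a7 neurons, 9.87% of 13327 genes were higher and 6.25% lower.

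The 12 genes highest in WBRT-28d over all members were led by Kcnip1, which encodes a calcium-binding partner of Kv4 potassium channels. Kcnip1 had 154 UMIs (85.0 CPM) in WBRT-28d and 22 UMIs (11.96 CPM) in ShamRT-28d, a ratio of 7.10 (4.53 to 11.7), while in the other Slc17a7 neurons it was lower in WBRT-28d (45.4 CPM in WBRT-28d against 82.9 CPM in ShamRT-28d, ratio 0.548). Oligodendrocyte nuclei held 88.9 CPM of Kcnip1 in WBRT-28d and 49.6 CPM in ShamRT-28d (1.79). All nuclei other than members held 124 CPM in WBRT-28d and 133 CPM in ShamRT-28d, so the members lay below that level in both libraries. One member nucleus held 25.3% of the members' Kcnip1 UMIs in WBRT-28d, and without the top nucleus of each library the members' ratio was 6.92. With the membership rule applied to nuclei thinned to 1000 UMIs, which kept 37 members in WBRT-28d and 54 in ShamRT-28d, it turned to 0.6206 for Kcnip1 and 0.6318 for Myo5b. Ror1, a receptor for Wnt5a, had 223 UMIs in WBRT-28d and 57 in ShamRT-28d (ratio 3.97, 2.96 to 5.41), with a UMI in 32.4% of WBRT-28d and 12.7% of ShamRT-28d members, against 7.06% of WBRT-28d and 2.75% of ShamRT-28d oligodendrocyte nuclei. Gfra1, the GDNF co-receptor, had 225 UMIs in WBRT-28d and 73 in ShamRT-28d (3.13, 2.39 to 4.13), and in other Slc17a7 neurons a ratio of 0.872. The ratio was 3.93 for Plpp4 (a phospholipid phosphatase), 3.38 for Crym (a thyroid hormone-binding protein), 3.04 for Dach1 (a transcriptional regulator) and 2.78 for Rftn1 (a lipid raft protein). It was 2.74 for Myo5b (a vesicle motor), 2.59 for Tmcc3 (a membrane protein), and 2.47 both for Col25a1 (a membrane collagen) and for Adcy8 (a calcium-stimulated adenylyl cyclase). Erdr1 had 766 UMIs in WBRT-28d and 279 in ShamRT-28d, a ratio of 2.79, which in other Slc17a7 neurons was 3.44. Its counts are uncertain, since the gene lies at the pseudoautosomal end of the sex chromosomes among near-identical copies.

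The 12 genes lowest in WBRT-28d included Clmp, Syndig1, Robo3 and Nr4a3. Clmp, which encodes an adhesion molecule of the immunoglobulin family, had 56 UMIs (30.9 CPM) in WBRT-28d and 212 UMIs (115 CPM) in ShamRT-28d, a ratio of 0.268 (0.196 to 0.361). It was found in 12.9% of WBRT-28d and 42.5% of ShamRT-28d members, against 6.77% of WBRT-28d and 3.77% of ShamRT-28d oligodendrocyte nuclei, and in other Slc17a7 neurons its ratio was 1.61. Syndig1, an AMPA receptor-binding membrane protein, had 133 UMIs in WBRT-28d and 392 in ShamRT-28d (0.344, 0.281 to 0.420), beside a ratio of 1.02 in other Slc17a7 neurons. Robo3, a receptor of the Slit pathway, had 42 UMIs in WBRT-28d and 142 UMIs in ShamRT-28d (0.3002, 0.208 to 0.426), and was also lower in other Slc17a7 neurons (0.454). Nr4a3, an activity-induced nuclear receptor, had 29 UMIs in WBRT-28d and 93 in ShamRT-28d (0.317, 0.201 to 0.485), and was also lower in other Slc17a7 neurons (0.449). The ratios of Flrt2 (an adhesion ligand), Pcsk2 (a prohormone convertase) and Sulf1 (a heparan sulfate sulfatase) were 0.401, 0.464 and 0.326. In other Slc17a7 neurons they were lower in WBRT-28d too, at 0.688 for Flrt2, 0.536 for Pcsk2 and 0.528 for Sulf1.

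Others of these 12 did not keep a low ratio in the matched members. Hs3st2, a heparan sulfate sulfotransferase, had 19 UMIs in WBRT-28d and 85 in ShamRT-28d over all members, but 9 in WBRT-28d and 2 in ShamRT-28d in the matched ones. Grm8, a presynaptic glutamate receptor, had 210 UMIs in WBRT-28d and 574 UMIs in ShamRT-28d over all members, and 90 in WBRT-28d and 75 in ShamRT-28d in the matched. Pcsk1, a prohormone convertase, had 49 UMIs in WBRT-28d and 140 UMIs in ShamRT-28d over all members, with 36.7% of those in WBRT-28d from 1 nucleus, and 14 in WBRT-28d and 0 in ShamRT-28d in the matched. Dkk3, a secreted protein of the Dickkopf family, had 44 UMIs in WBRT-28d and 128 UMIs in ShamRT-28d over all members and 13 in WBRT-28d and 14 in ShamRT-28d in the matched. In the matched members the ratio of Hs3st2 was 3.89 (0.805 to 37.0) and that of Grm8 1.04 (0.755 to 1.43). Both intervals hold 1, so only the loss of a low ratio is shown for these genes. Pcsk1 turned round, with an interval that began at 2.87, and Dkk3 no longer passed 1.5-fold. Of the 24 genes in all, 20 kept their direction there and 19 also passed 1.5-fold. In the other Slc17a7 neurons 19 of 24 had the same direction and 9 passed 1.5-fold, where 9.87% of all genes were higher and 6.25% lower.

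**Figure D2:**
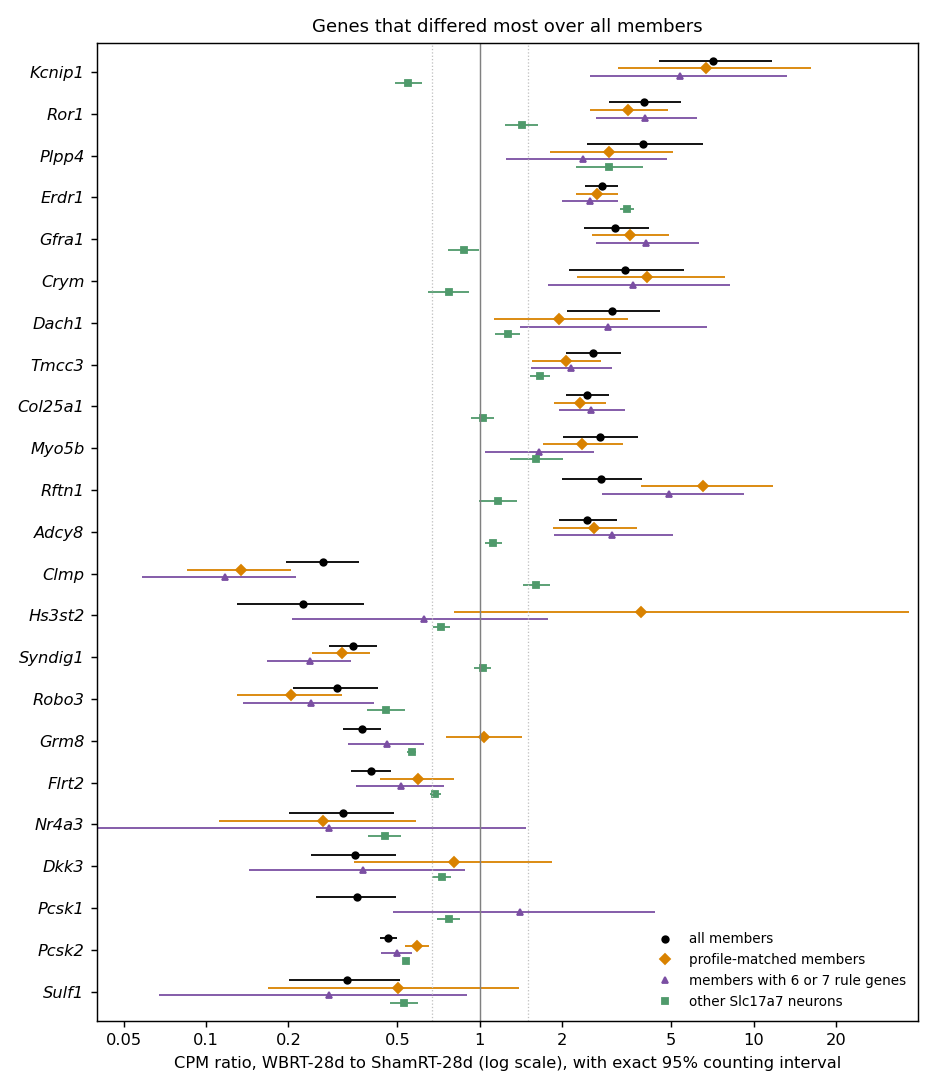
Ratio of WBRT-28d to ShamRT-28d (log axis) with exact 95% intervals of counting error for 23 of the 24 genes chosen over all members, in all members, profile-matched members, members with 6 or 7 rule genes, and other Slc17a7 neurons. Kcnip1 stood at 7.10 in all members and 0.548 in other Slc17a7 neurons, and Clmp at 0.268 in all members and 1.61 in other Slc17a7 neurons.

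When the same rule was applied to the matched members, 7 of its 24 genes were those already named. Tenm4 came first, which encodes a teneurin, a transmembrane adhesion protein of synapses. The gene lies at chr7:96171246-96911093 on the plus strand (GRCm38). It had 496 UMIs (404 CPM) in WBRT-28d matched members and 48 UMIs (45.2 CPM) in ShamRT-28d matched members, a ratio of 8.94 (6.64 to 12.3). Over all members Tenm4 was at 586 CPM in WBRT-28d and 327 CPM in ShamRT-28d (ratio 1.79), and in other Slc17a7 neurons at 1067 CPM in WBRT-28d and 716 CPM in ShamRT-28d (1.49). In members with 6 or 7 rule genes Tenm4 was at 393 CPM in WBRT-28d and 110 CPM in ShamRT-28d (3.58, 2.76 to 4.68), a smaller ratio than in the matched members. Oligodendrocyte nuclei held 393 CPM in WBRT-28d and 199 CPM in ShamRT-28d, so the matched members lay near that level in WBRT-28d and far below it in ShamRT-28d.

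Other genes with high ratios in the matched members included Car10, Atp2b4 and Zfp804b. Car10, a neurexin ligand, was at 683 CPM in WBRT-28d and 264 CPM in ShamRT-28d (2.58, 2.25 to 2.97). Atp2b4, a calcium pump of the plasma membrane, was at 83.8 CPM in WBRT-28d and 18.8 CPM in ShamRT-28d (4.45, 2.74 to 7.59). In all members Car10 had a ratio of 1.07 and Atp2b4 of 1.38, both short of 1.5-fold. Zfp804b, a zinc finger protein, was at 451 CPM in WBRT-28d and 120 CPM in ShamRT-28d in matched members (3.74, 3.08 to 4.57) and passed 1.5-fold over all members too (2.16). Rftn1 was at 98.5 CPM in WBRT-28d and 15.1 CPM in ShamRT-28d (6.54), Greb1l at 66.7 CPM in WBRT-28d and 16.9 CPM in ShamRT-28d (3.94), Pdzrn4 at 174 CPM in WBRT-28d and 49.9 CPM in ShamRT-28d (3.49), and Sergef, a guanine nucleotide exchange factor of secretion, at 181 CPM in WBRT-28d and 58.3 CPM in ShamRT-28d (3.11). Gfra1 (3.53), Ror1 (3.48) and Erdr1 (2.67) were named in this group as well.

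Genes with low ratios in the matched members included Bdnf and ephrin receptors. Bdnf, the activity-dependent neurotrophin, was at 45.6 CPM in WBRT-28d matched members and 132 CPM in ShamRT-28d matched members (56 UMIs in WBRT-28d and 140 UMIs in ShamRT-28d, ratio 0.346, 0.249 to 0.475), against a ratio of 0.898 in other Slc17a7 neurons. Epha7 was at 630 CPM in WBRT-28d and 1377 CPM in ShamRT-28d (0.457, 0.419 to 0.499), and Epha5 at 454 CPM in WBRT-28d and 996 CPM in ShamRT-28d (0.456, 0.410 to 0.505). Both are receptors for ephrin-A ligands in axon guidance. Clmp was at 21.2 CPM in WBRT-28d and 157 CPM in ShamRT-28d (0.135, 0.0854 to 0.204), further apart than over all members. Robo3 had a ratio of 0.205 and Syndig1 of 0.312. Ntng1, a netrin-G adhesion protein, was at 422 CPM in WBRT-28d and 818 CPM in ShamRT-28d (0.516), Sema6d, a semaphorin, at 481 CPM in WBRT-28d and 963 CPM in ShamRT-28d (0.4995), and Ndst4, a heparan sulfate enzyme, at 112 CPM in WBRT-28d and 252 CPM in ShamRT-28d (0.445). Parp8 had a ratio of 0.384. Syn3, a synapsin, was at 251 CPM in WBRT-28d and 575 CPM in ShamRT-28d (0.437), and Timp3, an inhibitor of metalloproteinases, at 26.0 CPM in WBRT-28d and 87.5 CPM in ShamRT-28d (0.298). Timp3 lies inside Syn3 on the opposite strand, and whether the counting used strand is not given in the sources used here, so reads of the pair may not be separated.

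The 24 genes were chosen for their ratio in the matched members, so their values in sets that share those nuclei were largely fixed by the choice. Among the matched members with 4 or 5 rule genes 24 of 24 passed 1.5-fold, among all members with 6 or 7 rule genes 23, and in the matched members without the nucleus richest in each gene 24. Over all members 19 passed, and among all members with 4 rule genes 21 had the same direction and 11 passed. In the members that were not matched, 16 of 24 had the same direction and 4 passed 1.5-fold. In other Slc17a7 neurons, 13 of the 24 had the same direction and 3 passed 1.5-fold, where 9.87% of all genes were higher and 6.25% lower. The share among all genes was not counted in oligodendrocyte nuclei, where 12 of the 24 had the same direction and 8 passed 1.5-fold. The last count includes Ror1, with 44.9 CPM in WBRT-28d and 19.2 CPM in ShamRT-28d in oligodendrocyte nuclei. The part of RNA shared between nuclei of a library was not tested.

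**Figure D3:**
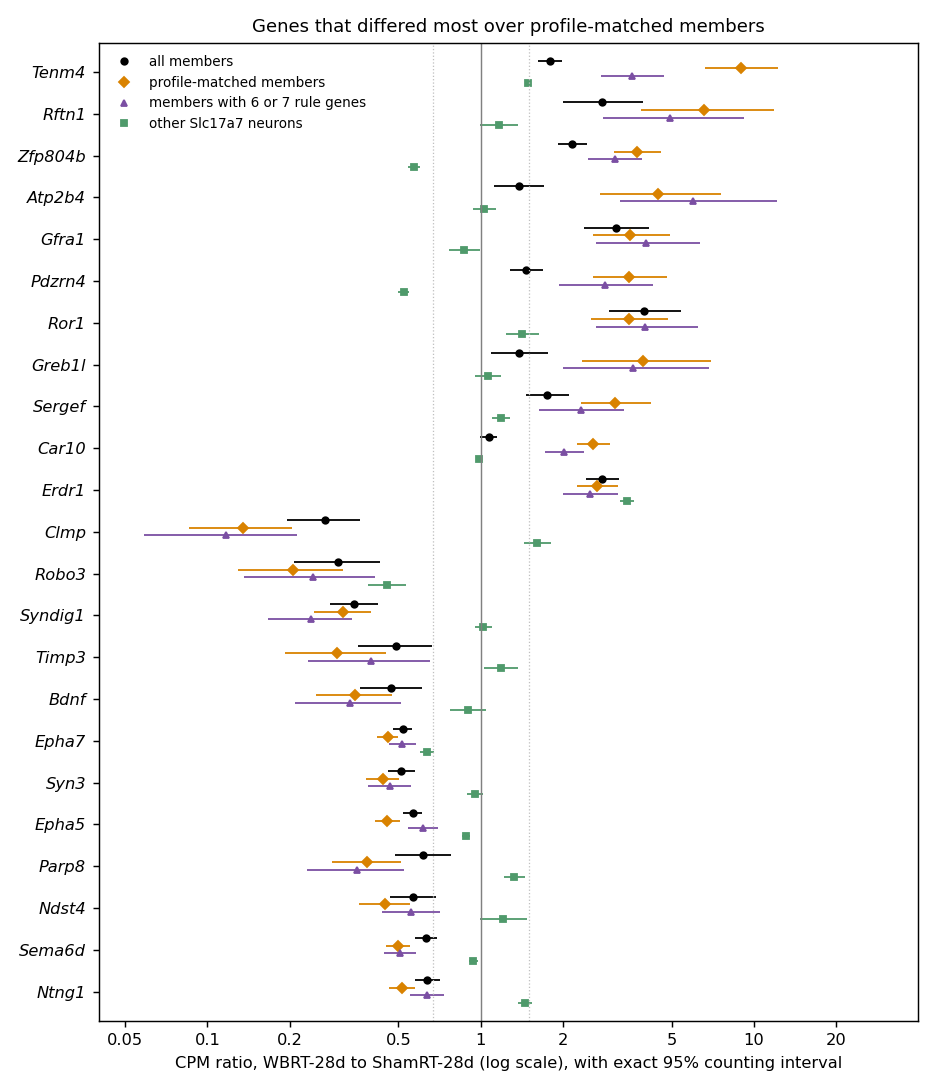
Ratio of WBRT-28d to ShamRT-28d (log axis) with exact 95% intervals of counting error for 23 of the 24 genes chosen in profile-matched members, in the same 4 groups of nuclei. Tenm4 stood at 8.94 in the matched members and 1.79 in all members, while Clmp stood at 0.135 in the matched members and 0.268 in all members.

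Shares of nuclei were compared at 1 depth, by thinning the matched members to 2000 UMIs, which left 203 nuclei of WBRT-28d and 177 of ShamRT-28d. Tenm4 had a UMI in 42.4% of WBRT-28d and 7.34% of ShamRT-28d nuclei, and Car10 in 58.1% of WBRT-28d and 33.9% of ShamRT-28d nuclei. Clmp had a UMI in 3.45% of WBRT-28d and 23.2% of ShamRT-28d nuclei, Bdnf in 6.90% of WBRT-28d and 19.2% of ShamRT-28d nuclei, Epha7 in 57.1% of WBRT-28d and 85.9% of ShamRT-28d nuclei. The differences in level were thus spread over many nuclei. In oligodendrocyte nuclei, whose counts were not thinned, the shares were 33.1% in WBRT-28d and 19.0% in ShamRT-28d for Tenm4, 1.85% in WBRT-28d and 1.01% in ShamRT-28d for Bdnf, and 14.0% in WBRT-28d and 8.50% in ShamRT-28d for Epha7.

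**Figure D4:**
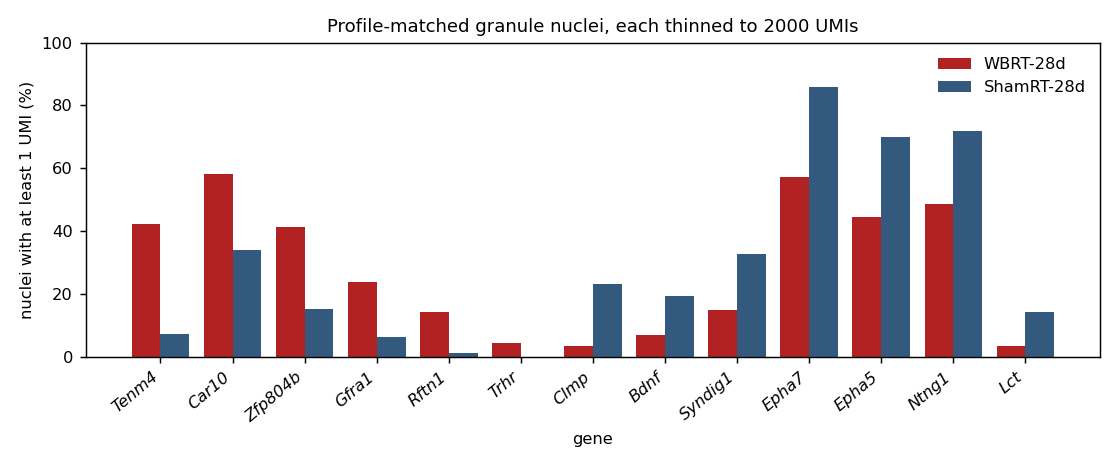
Percent of profile-matched granule nuclei with at least 1 UMI of each of 13 genes after thinning to 2000 UMIs, in WBRT-28d (203 nuclei) and ShamRT-28d (177 nuclei). The first 6 genes were found in more nuclei of WBRT-28d and the last 7 in more nuclei of ShamRT-28d, from Tenm4 at 42.4% in WBRT-28d and 7.34% in ShamRT-28d to Lct at 3.45% in WBRT-28d and 14.1% in ShamRT-28d.

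Lct was lower and Trhr higher in WBRT-28d, and these genes are known as markers along the long axis of the dentate gyrus. Lct, which marks dorsal granule cells, had 42 UMIs (23.2 CPM) in WBRT-28d and 64 (34.8 CPM) in ShamRT-28d (ratio 0.666, 0.440 to 0.998), and 30.9 CPM in WBRT-28d and 60.2 CPM in ShamRT-28d in the matched members (0.513, 0.334 to 0.779). Trhr, the receptor of thyrotropin-releasing hormone and a marker of ventral granule cells, had 33 UMIs (18.2 CPM) in WBRT-28d and 0 in ShamRT-28d, where 0 UMIs allow up to 1.63 CPM, so its level in WBRT-28d was 11.2 times a floor of 3 UMIs in the library, and the exact interval of the ratio began at 8.58. Its UMIs came from 7.72% of WBRT-28d members, against 0.444% of oligodendrocyte nuclei in WBRT-28d and 0.290% in ShamRT-28d. Its ratio in other Slc17a7 neurons was 1.10. In the matched members Trhr had 22 UMIs in WBRT-28d and 0 UMIs in ShamRT-28d, with an interval that began at 4.74, and after thinning 0 of 177 nuclei of ShamRT-28d held it, which allows a share of up to 1.69%.

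Trhr, Cpne7, Grp, Nr2f2, Gsg1l and Spata13 were chosen after their values were seen, and so was the use of Lct as a marker of the long axis. Cpne7, a copine, had 58 UMIs in WBRT-28d and 15 in ShamRT-28d (3.92, 2.20 to 7.46), and 31 in WBRT-28d and 1 in ShamRT-28d in the matched members. Its ratio was 2.90 in other Slc17a7 neurons and 2.59 in oligodendrocyte nuclei, so it was not higher in granule nuclei alone. Grp, a neuropeptide precursor, had 24 UMIs in WBRT-28d and 3 UMIs in ShamRT-28d over all members, and Nr2f2, a nuclear receptor, 33 in WBRT-28d and 6 in ShamRT-28d (5.58, 2.31 to 16.3). The ratio of Nr2f2 was 2.59 in other Slc17a7 neurons and 2.999 in oligodendrocyte nuclei. Gsg1l, an AMPA receptor auxiliary, had 247 UMIs in WBRT-28d and 332 in ShamRT-28d (0.755, 0.638 to 0.893). Spata13, an exchange factor of small GTPases, had 75 UMIs in WBRT-28d and 84 UMIs in ShamRT-28d (0.906, 0.655 to 1.25). Which stretch of the dentate gyrus each library sampled was not measured otherwise, and it cannot be told apart from irradiation.

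Of the 16 dentate markers outside the rule, 14 had at least 50 UMIs, of which 1 was at least 1.5-fold higher and 2 lower. Among all genes the shares were 8.04% higher and 6.17% lower. Npnt, which encodes the integrin ligand nephronectin, was at 43.0 CPM in WBRT-28d and 23.4 CPM in ShamRT-28d (1.84, 1.25 to 2.74). Plk5, a polo-like kinase of neurons, was at 37.5 CPM in WBRT-28d and 62.0 CPM in ShamRT-28d (0.605, 0.442 to 0.825), and Lct made the second lower one. Calb1, the calcium buffer calbindin, was at 83.9 CPM in WBRT-28d and 75.04 CPM in ShamRT-28d, and Zbtb20, a transcription factor of hippocampal neurons, at 3059 CPM in WBRT-28d and 3164 CPM in ShamRT-28d. Stxbp6, a regulator of vesicle fusion, was at 738 CPM in WBRT-28d and 895 CPM in ShamRT-28d (0.824, 0.766 to 0.887). The median log2 ratio of the list was -0.05 over all members and -0.28 in the matched.

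Ionotropic glutamate receptors carry the fast input of granule cells. Of 17 genes 15 were measured, of which 2 were higher and 0 lower in WBRT-28d, against 8.04% of all genes higher. The most abundant stayed close, with Grin2a at 3138 CPM in WBRT-28d and 2939 CPM in ShamRT-28d (1.07) and Gria1 at 2270 CPM in WBRT-28d and 2237 CPM in ShamRT-28d (1.01), while Gria2 was at 1678 CPM in WBRT-28d and 2060 CPM in ShamRT-28d (0.814). Grin3a, an NMDA receptor subunit of low calcium permeability, was at 76.2 CPM in WBRT-28d and 31.5 CPM in ShamRT-28d (2.41, 1.76 to 3.34), and the kainate receptor Grik1 at 21.0 CPM in WBRT-28d and 6.53 CPM in ShamRT-28d (3.21, 1.64 to 6.76). In the matched members 6 of 14 were higher, against 9.27% of all genes. They included Grin3a (2.98), Gria4 (1.68), Grik4 (1.66), Grid1 (1.60) and Grik3 (1.51), of which Grin3a alone passed 1.5-fold over all members. Of the 12 auxiliary and scaffold genes, Cacng2, which encodes stargazin, was higher (93.8 CPM in WBRT-28d and 58.7 CPM in ShamRT-28d, 1.60), against 8.04% of all genes. In the matched members Cacng2 alone of 11 was past 1.5-fold, against 9.27% of all genes higher. Of the 7 metabotropic receptors 6 were measured, with Grm8 lower, against 6.17% of all genes. None passed 1.5-fold in the matched members, where Grm5 was at 2404 CPM in WBRT-28d and 2358 CPM in ShamRT-28d.

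Of 15 genes of GABA receptors 14 were measured, and 1 was lower and 0 higher, against 6.17% lower and 8.04% higher among all genes. Gabrg3, a receptor subunit, was higher in the matched members (1.96) but not over all members (0.958). Gabrb1 (0.985), another subunit, and Gphn, the receptor scaffold (1.13), lay near 1.

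All 21 genes of transmitter release were measured. Unc13c, a vesicle priming factor, was at 67.9 CPM in WBRT-28d and 13.6 CPM in ShamRT-28d (123 UMIs in WBRT-28d and 25 UMIs in ShamRT-28d, 4.99, 3.23 to 8.02), beside 2.08 in other Slc17a7 neurons, and Syn3 was lower (0.512). Syt1, the calcium sensor of release, was at 2799 CPM in WBRT-28d and 3415 CPM in ShamRT-28d (0.820), and Erc2, of the active zone, at 2650 CPM in WBRT-28d and 2358 CPM in ShamRT-28d (1.12). Within the matched nuclei 3 of 21 were higher and 1 lower, against 9.27% higher and 6.62% lower among all genes.

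All 24 potassium and HCN channel genes were measured, with Kcnip1 higher and 3 lower, against 8.04% higher and 6.17% lower among all genes. Kcnq5, an M-current subunit, was at 639 CPM in WBRT-28d and 1109 CPM in ShamRT-28d (0.576), Kcnt2, a sodium-activated channel, at 289 CPM in WBRT-28d and 532 CPM in ShamRT-28d (0.542), and Kcnj3, a G protein-gated channel, at 564 CPM in WBRT-28d and 846 CPM in ShamRT-28d (0.667). Among the matched members Kcnt2 (0.512) and Kcnj3 (0.602) stayed low but Kcnq5 did not (1.22). There, Dpp10, a Kv4 partner, was at 164 CPM in WBRT-28d and 38.6 CPM in ShamRT-28d (4.24), and Kcnh7 at 465 CPM in WBRT-28d and 221 CPM in ShamRT-28d (2.10), neither of which passed over all members. Of 19 sodium and calcium channel genes 18 were measured, and only Cacna1g, a T-type calcium channel, was past 1.5-fold, at 13.2 CPM in WBRT-28d and 28.3 CPM in ShamRT-28d (0.468). Over the matched members 3 of 17 were higher and Scn2a1 was lower (0.647), against 9.27% higher and 6.62% lower among all genes. Of the 22 genes of calcium and cyclic nucleotide signalling, Adcy8 was higher and Pde4d, a cyclic AMP phosphodiesterase, lower (578 CPM in WBRT-28d against 965 CPM in ShamRT-28d, 0.599). Within the matched nuclei 6 of 22 were higher and 1 lower, against 9.27% higher and 6.62% lower among all genes. Pde1a led the higher ones, at 193 CPM in WBRT-28d and 32.9 CPM in ShamRT-28d (5.86, 4.09 to 8.61). Over all members Pde1a had a ratio of 0.854.

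Of the 31 genes of synaptic adhesion, 3 were higher and 2 lower over all members, shares near the 8.04% higher and 6.17% lower of all genes. Tenm2, a teneurin that binds latrophilins, was at 4781 CPM in WBRT-28d and 2871 CPM in ShamRT-28d (1.67, 1.61 to 1.72), with a ratio of 2.10 in the matched members. In the matched members 3 of 26 genes of the list were higher and 1 lower, against 9.27% higher and 6.62% lower among all genes. Nrxn3 was at 2976 CPM in WBRT-28d and 4533 CPM in ShamRT-28d (0.657, 0.634 to 0.680). Cadm3 was higher (1.54) and Slitrk1 lower (0.373), and Lrrtm4, which binds neurexins and heparan sulfates at granule cell synapses, was at 7334 CPM in WBRT-28d and 7457 CPM in ShamRT-28d (0.984).

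Axon guidance genes, of which all 24 were measured, had 4 higher and 3 lower, against 8.04% higher and 6.17% lower among all genes. Dcc, a netrin receptor, was at 1394 CPM in WBRT-28d and 724 CPM in ShamRT-28d (1.93, 1.80 to 2.06), and Nrp1, a semaphorin receptor, at 391 CPM in WBRT-28d and 233 CPM in ShamRT-28d (1.68, 1.48 to 1.89), beside ratios of 0.876 for Dcc and 0.680 for Nrp1 in other Slc17a7 neurons. Slit2 (1.67) and the ligand Sema3c (2.21) were the other higher ones, and Epha7 (0.518), Epha5 (0.563) and Ntng1 (0.637) the lower ones. Among the matched members 5 of 20 were higher and 7 lower, more in both directions than the 9.27% (higher) and 6.62% (lower) of all genes.

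Immediate early genes are induced within minutes to hours of neuronal activity. Of 20 genes 9 reached 50 UMIs, and 7 of the 9 were lower in WBRT-28d and 0 higher, against 6.17% of all genes lower, with a median log2 ratio of -1.09. Homer1, a scaffold of glutamate receptors, was at 200 CPM in WBRT-28d and 429 CPM in ShamRT-28d (0.467, 0.411 to 0.529), and Bdnf at 49.1 CPM in WBRT-28d and 104 CPM in ShamRT-28d (0.470, 0.362 to 0.608). Nr4a3 was at 16.0 CPM in WBRT-28d and 50.6 CPM in ShamRT-28d, Nr4a2 at 11.6 CPM in WBRT-28d and 27.7 CPM in ShamRT-28d (21 UMIs in WBRT-28d and 51 UMIs in ShamRT-28d, 0.418, 0.239 to 0.707), and Nr4a1 at 11.04 CPM in WBRT-28d and 21.2 CPM in ShamRT-28d (0.521). Inhba, an activin subunit, had a ratio of 0.531, and Pcsk1 was the seventh. Arc had 7 UMIs in WBRT-28d and 30 in ShamRT-28d, while Fos had 5 in WBRT-28d and 15 in ShamRT-28d. Most UMIs of both in ShamRT-28d came from members that were not matched. In the other Slc17a7 neurons 5 of 19 were lower, against 6.25% of all genes there, and the median was -0.35.

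The matched members gave a smaller and more mixed set of these genes. Only 4 reached 50 UMIs, of which Bdnf (0.346) and Inhba (0.458, 27 UMIs in WBRT-28d and 51 UMIs in ShamRT-28d) were lower, against 6.62% of all genes. Homer1, with 1.19, was not. The summed level of all 20 was 290.5 CPM in WBRT-28d and 405 CPM in ShamRT-28d in the matched, against 435 CPM in WBRT-28d and 880 CPM in ShamRT-28d over all members. Nr4a3 had 9 UMIs in WBRT-28d and 29 UMIs in ShamRT-28d (0.268, 0.112 to 0.582) and Nr4a2 had 2 in WBRT-28d and 11 in ShamRT-28d in the matched members, while Nr4a1 had 10 in WBRT-28d and 1 in ShamRT-28d. Arc had 5 UMIs in WBRT-28d and 6 in ShamRT-28d there (0.721, 0.174 to 2.83), and Fos 1 in WBRT-28d and 2 in ShamRT-28d, too few to show a difference. Thus Bdnf, Inhba, Nr4a3 and Nr4a2 were lower in both sets of nuclei, and Homer1 and Nr4a1 were not.

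The promoters of Nr4a3 and Nr4a2 are shown because both were lower in all and in matched members. Both were lower in other Slc17a7 neurons as well, with ratios of 0.449 for Nr4a3 and 0.617 for Nr4a2. Each window spans 300 bases on GRCm38.p6, from RefSeq, 5′ to 3′, with half-sites of the cAMP response element (TGACG or CGTCA, both strands searched) in capitals. Nr4a3 lies at chr4:48045055-48045354 on the plus strand and Nr4a2 at chr2:57123954-57124253 on the minus strand.
Nr4a3: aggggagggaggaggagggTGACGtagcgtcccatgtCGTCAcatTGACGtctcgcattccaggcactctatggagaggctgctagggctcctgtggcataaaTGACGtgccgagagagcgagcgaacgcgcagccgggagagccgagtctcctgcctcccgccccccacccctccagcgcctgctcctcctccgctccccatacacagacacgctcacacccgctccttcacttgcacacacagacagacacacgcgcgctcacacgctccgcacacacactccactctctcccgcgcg
Nr4a2: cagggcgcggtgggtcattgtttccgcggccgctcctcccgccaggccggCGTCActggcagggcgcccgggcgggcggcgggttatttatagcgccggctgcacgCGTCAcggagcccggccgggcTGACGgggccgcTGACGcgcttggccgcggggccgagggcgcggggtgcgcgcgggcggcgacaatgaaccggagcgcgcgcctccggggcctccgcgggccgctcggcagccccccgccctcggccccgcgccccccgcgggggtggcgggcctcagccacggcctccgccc
Each holds 4 half-sites, and at least 1 occurs in 20.81% of all 32851 promoter windows of this length.

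Of 16 genes of neurotrophins and growth factors 14 were measured, with Erbb4 higher and Bdnf lower, against 8.04% higher and 6.17% lower among all genes. Nrg3, a neuregulin, was at 5500 CPM in WBRT-28d and 5619 CPM in ShamRT-28d, and Ntf3 at 48.6 CPM in WBRT-28d and 65.3 CPM in ShamRT-28d (0.744, 0.559 to 0.988). Over the matched members Erbb4 was at 240 CPM in WBRT-28d and 48.0 CPM in ShamRT-28d (5.00) and Fgfr1 was lower beside Bdnf, at 0.662.

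**Figure D5:**
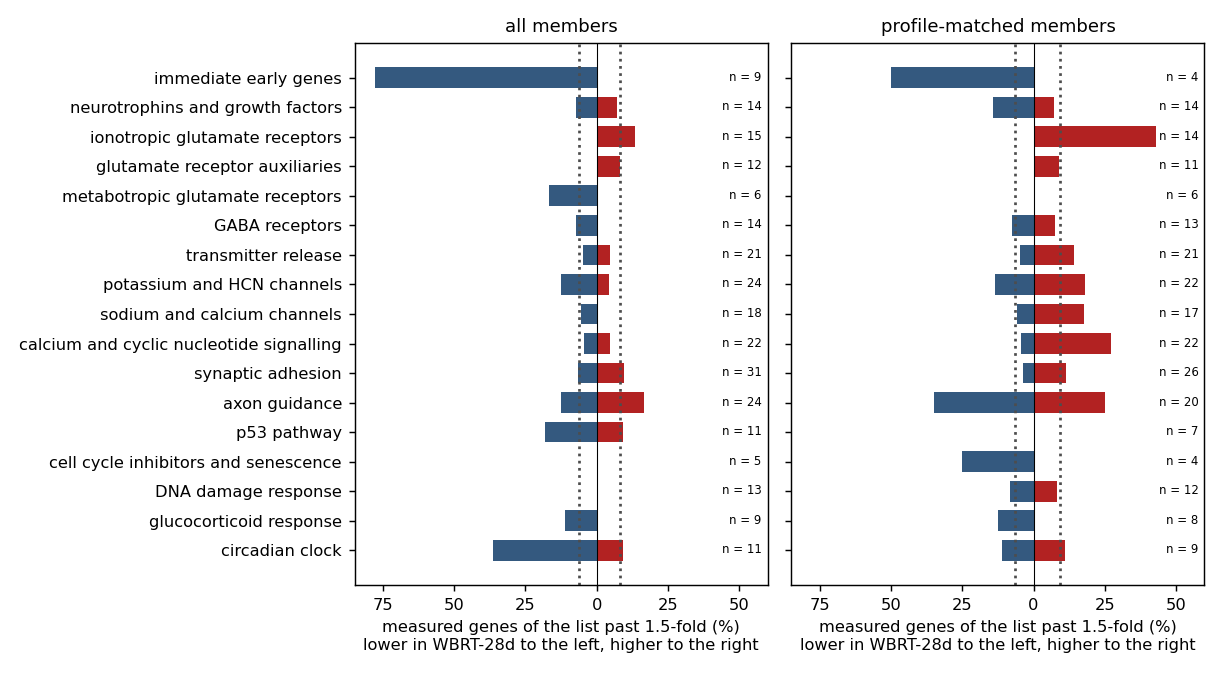
Percent of the measured genes of 17 lists that were at least 1.5-fold lower (left of 0) or higher (right of 0) in WBRT-28d than in ShamRT-28d, in all members and in profile-matched members, with dotted lines at the share among all genes. Among all members 7 of 9 immediate early genes were lower, and among matched members 6 of 14 ionotropic glutamate receptors were higher.

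Genes of the response to radiation were described by list. In the p53 pathway 11 of 27 genes were measured, with Rrm2b, a p53-induced ribonucleotide reductase subunit, higher (43 UMIs in WBRT-28d and 23 UMIs in ShamRT-28d, 1.90, 1.12 to 3.30) and Plk2 (0.665) and Btg2 (0.666) lower, against 8.04% higher and 6.17% lower among all genes, and a median log2 ratio of -0.10. Mdm2, the inhibitor of p53, had 65 UMIs in WBRT-28d and 78 in ShamRT-28d (0.846, 0.599 to 1.19), and Sesn1 270 in WBRT-28d and 231 in ShamRT-28d (1.19, 0.992 to 1.42). Within the matched nuclei 7 were measured and none passed 1.5-fold. Of 22 genes of the DNA damage response 13 were measured and none passed, among them Trp53bp1 (1.19), Xrcc4 (0.9497) and Smc6 (1.04). Among the matched members Prkdc, of end joining, was higher (1.66) and Smc5 lower (0.642), against 9.27% higher and 6.62% lower among all genes.

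Cdkn1a and Cdkn2a, which encode cell cycle inhibitors known from senescent cells, were at or near 0 UMIs in granule nuclei. Cdkn1a, which encodes p21, had 1 UMI in WBRT-28d and 4 in ShamRT-28d, in 0.368% of WBRT-28d and 1.59% of ShamRT-28d members, against 0.998% of WBRT-28d and 0.242% of ShamRT-28d oligodendrocyte nuclei. Cdkn2a, which encodes p16, had 0 UMIs in the members of both libraries, which allows up to 3 UMIs in each, so no difference was detectable at this depth. The 14 genes of cell cycle inhibitors and senescence summed to 380 CPM in WBRT-28d and 391 CPM in ShamRT-28d, 90.1% in WBRT-28d and 96.8% in ShamRT-28d of the level in the other nuclei. Of these, 5 were measured and none passed 1.5-fold, with Rb1 at 107 CPM in WBRT-28d and 129 CPM in ShamRT-28d (0.827) and Ccnd2 at 106 CPM in WBRT-28d and 87.5 CPM in ShamRT-28d (1.21). Over the matched members Rb1 was lower (0.605), against 6.62% of all genes.

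Summed over each list, genes of newborn and dividing cells lay below their level in the other nuclei. Singly, 1 gene of each list was above that level in both libraries. The 9 genes of immature neurons summed to 121 CPM in WBRT-28d and 105 CPM in ShamRT-28d, with Dcx, a microtubule protein of migrating neurons, at 80 UMIs in WBRT-28d and 84 UMIs in ShamRT-28d. Dpysl3, another such protein, was higher (46 UMIs in WBRT-28d and 25 UMIs in ShamRT-28d, 1.87, 1.12 to 3.17). The 8 genes of dividing cells and progenitors summed to 14.9 CPM in WBRT-28d and 20.1 CPM in ShamRT-28d, and Eomes, of intermediate progenitors, was at 0 UMIs in both. Mki67 had 7 UMIs in WBRT-28d and 25 in ShamRT-28d, in 2.57% of WBRT-28d and 8.33% of ShamRT-28d members, against 0.961% of WBRT-28d and 1.40% of ShamRT-28d oligodendrocyte nuclei, and 6 in WBRT-28d and 22 in ShamRT-28d in the matched members. It lay under the 50 UMIs required, and was singled out after its values were seen.

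Among 13 glucocorticoid response genes 9 were measured, with Per1 lower (41 UMIs in WBRT-28d and 63 UMIs in ShamRT-28d, 0.661, 0.435 to 0.994), against 6.17% of all genes. The receptor genes Nr3c1 and Nr3c2 both stood at 1.001. Within the matched nuclei Mt1 alone was past 1.5-fold, at 0.509, against 6.62% of all genes lower. Of 15 circadian clock genes 11 were measured, with Rora higher (1.58) and Per3 (0.499, 0.38 to 0.650), Cry1 (0.522), Npas2 (0.660) and Per1 lower, against 8.04% higher and 6.17% lower among all genes, and a median of -0.28. In other Slc17a7 neurons that median was 0.21, with Per3 at 0.890. Per3 was low in the matched members too, at 0.522. There 1 of 9 genes was lower and Arntl, at 1.59, higher, against 6.62% lower and 9.27% higher among all genes. The hour at which each brain was taken is not given in the sources used here.

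Of 16 interferon and MHC class I genes only Stat2 reached 50 UMIs, with 34 in WBRT-28d and 47 in ShamRT-28d (0.734, 0.458 to 1.17), and 21 in WBRT-28d and 38 in ShamRT-28d in the matched members (0.478). Of 10 genes of heat shock and tissue handling 5 were measured, with the chaperone Hsp90aa1 higher (127 CPM in WBRT-28d and 82.1 CPM in ShamRT-28d, 1.55, 1.26 to 1.92), against 8.04% of all genes. Its ratio in the matched members was 1.42. The 8 neuron genes used to follow free RNA had a median of -0.15, the same as in other Slc17a7 neurons, and none passed 1.5-fold over all members. In the matched members 1 was higher and 1 lower, against 9.27% higher and 6.62% lower among all genes.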

How the data were processed

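Nuclei were isolated from pooled frozen whole brains, and the authors deposited raw UMI counts per gene and barcode from Cell Ranger, 1 matrix for each of the 2 libraries. The submitters' processing notes name Cell Ranger, R 3.5.3, Seurat 3.0 and mm10, and the methods describe a pre-mRNA reference. The deposited counts were used unchanged. The members and gene lists were chosen with earlier results of these data known. Counts were summed over member nuclei in each library and scaled to CPM, the count per 1000000 UMIs of the members' total. The ratio of WBRT-28d to ShamRT-28d has an exact conditional binomial 95% interval, and shares have exact Clopper-Pearson intervals. UMIs collapse PCR copies, and all intervals and floors of 3 counts cover counting error only. A gene was compared if its members' UMIs summed to 50 or more, and it was counted when past 1.5-fold. Named genes had at least 100 UMIs and are the 12 in each direction whose interval bound nearest 1 lay furthest from it, leaving out mitochondrial and predicted genes and genes whose members' CPM was below 50% of their library's. The profile match took the highest multinomial log-likelihood over 9 profiles. The profile match, its named genes, the thinning to 3000 UMIs and the set without the richest nucleus were added after the data were seen. Some genes of the lists and of the named sets are not reported here, though counts include them. Scrublet calls were counted and kept. The scripts were tested on simulated data. Gene positions are from GENCODE on GRCm38. The work used scanpy 1.11.5, matplotlib 3.10.9, scipy 1.17.1 and numpy 2.4.6, with tables in pandas 2.3.3 under Python 3.11.15.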

Additional observations from a re-analysis of the deposited data

How the results depend on the processing

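No paired analysis was possible because each condition has 1 library, so leaving out a replicate was not possible either. With the membership rule applied to nuclei thinned to 1000 UMIs, the ratio of the shares of members was 0.4601, 208 genes were higher and 201 lower in WBRT-28d, 118 genes were at least 2-fold above the other nuclei and 394 varied at least 2 times as much as depth gives. With at least 3 rule genes 157 genes stood above the other nuclei. In the profile-matched members 440 genes passed the measure of variation. With at least 6 rule genes 359 genes were higher and 480 passed that measure. A minimum of 20 UMIs gave 1218 higher and 967 lower genes, and one of 200 UMIs 136 and 103. Without Malat1 and mitochondrial genes in the totals 579 were higher and 540 lower, and with median-ratio scaling 578 and 544. The median log2 ratio of cortical genes turned to 0.1132 with at least 3 rule genes, 0.37 after thinning and 0.3483 in the matched members. That of cell cycle inhibitors turned to -0.1418 with at least 5 rule genes, -0.2404 in the matched members and -0.2735 at 200 UMIs. That of oligodendrocyte genes turned to -0.4806 after thinning and -0.172 with at least 6 rule genes. After thinning the ratio turned to 0.6206 for Kcnip1, 0.6318 for Myo5b, and 1.324 for Hs3st2 and Dkk3. In the matched members it turned to 3.891 for Hs3st2 and 1.038 for Grm8, and with at least 6 rule genes to 1.404 for Pcsk1. Each of these intervals holds 1. Pcsk1 had 14 UMIs in WBRT-28d and 0 in ShamRT-28d in the matched members, so no ratio was given. The causes were not tested, except that fewer nuclei and UMIs enter under thinning and under stricter rules.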
